A study of Mus musculus with 2 samples.

Results

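The stromal barcodes described here are 79 of the 28245 cell barcodes in a count table of mouse testis, 0.280% of them (exact 95% binomial interval 0.221 to 0.348%). They were chosen by measured UMI counts: a barcode was a member if Dcn, Mgp, Col1a1, Col1a2, Acta2 and Myh11 together gave at least 8 unique molecular identifiers (UMIs, the counted molecules), and if the steroid enzyme genes Cyp17a1, Cyp11a1, Hsd3b1 and Star together gave fewer than 10. The rule was written with results of the same table known, so the levels of these 10 genes are a description of the choice. The table joins 1 library of total testicular cells from adult miR-202-/- mice and 1 from adult wild-type mice, both of the strain C57BL/CJ;ICR. Cells were freed with collagenase and then trypsin, debris was removed by flow sorting, and 3′ ends were counted with Chromium 3.1 chemistry. Each barcode ends in a mark, 1 or 2, and the labels do not say which mark is which genotype. The question of how the knockout differs from the wild type was therefore not addressed, and values are given for the pool and under each mark. Under mark 1, 46 of 12935 barcodes were members (0.356%, 0.260 to 0.474%), and under mark 2, 33 of 15310 (0.216%, 0.148 to 0.303%). The marks are not replicates, no test was run, and all intervals are exact 95% intervals that cover counting error only.

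Stromal cells fill the space between the seminiferous tubules and lie around their walls. Fibroblast-like cells of the interstitium secrete collagens and small proteoglycans such as decorin (Dcn). Peritubular myoid cells form a thin contractile sheath around each tubule, carry smooth muscle actin (Acta2) and smooth muscle myosin (Myh11), and move sperm along the lumen. Both kinds support germ cells and the androgen-making Leydig cells through growth factors, basement membrane and the control of retinoic acid.

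The members fell into unequal groups by their gate genes. Of the 3514 gate UMIs, 2380 were of Dcn (67.7%), 597 of Mgp (17.0%), 294 of Col1a2 (8.37%), 73 of Col1a1 (2.08%), 149 of Acta2 (4.24%) and 21 of Myh11 (0.598%). In 4 members Acta2 and Myh11 together exceeded Dcn, Mgp, Col1a1 and Col1a2, and these are called muscle-led (5.06% of the members). The other 75 are called matrix-led. No member lay near this division: the 4 muscle-led members had 64, 59, 24 and 18 muscle UMIs beside 11, 4, 4 and 2 matrix UMIs, and no matrix-led member had more than 2 muscle UMIs. Of the muscle-led members 3 bore mark 1 and 1 bore mark 2. Of the matrix-led members 43 bore mark 1 and 32 bore mark 2. The word peritubular in the name of these cells thus rests on 4 barcodes.

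**Figure D1:**
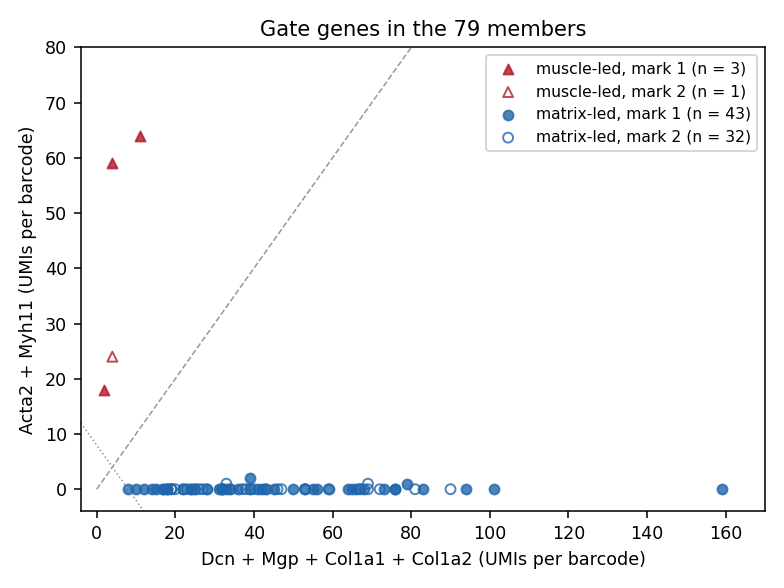
Gate UMIs of each member, with the matrix genes (Dcn, Mgp, Col1a1, Col1a2) on the horizontal axis and the muscle genes (Acta2, Myh11) on the vertical axis, both in UMIs per barcode. The 4 muscle-led members (triangles) lie above the dashed line of equal counts and the 75 matrix-led members (circles) lie along the horizontal axis. Filled symbols bear mark 1 and open symbols mark 2, and the dotted line marks the gate of 8 UMIs.

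The gate stood in a sparse part of the distribution. The 3 members just inside it had 8, 10 and 12 gate UMIs, while the 4 barcodes just outside it that met the steroid limit had 5, 5, 6 and 7. Of all barcodes 27124 had 0 gate UMIs, 970 had 1 and 63 had 2 to 4. Members had 8 to 159 gate UMIs with a median of 39. A single further barcode passed the matrix limit but had 10 or more steroid enzyme UMIs. Among the members, 3 had any UMI of these enzymes and none had more than 3.

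Members had 3682 to 26356 UMIs, with a median of 5365 against 5751 in the 27649 barcodes outside all gates. They summed to 498651 UMIs. Germ cell RNA was present in every member: Prm1, Prm2, Tnp1 and Tnp2, which package sperm DNA, made up 4.36% of their UMIs against 7.79% in the barcodes outside the gates. Of the 73 barcode sequences that occur under both marks none belonged to a member. No doublet caller was run, and 3 members stood apart by depth. The muscle-led member with 24747 UMIs also had 51 UMIs of 9 spermatocyte markers and 73 of 8 round spermatid markers. A matrix-led member with 26356 UMIs had 57 and 55 of them, and a matrix-led member with 19120 UMIs had 4595 UMIs of 9 elongating spermatid markers. A further matrix-led member, under mark 2, had 51 UMIs of the Sertoli gate genes beside 34 gate UMIs.

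The members carried the markers of fibroblast-like stroma in most barcodes and those of smooth muscle in few. Dcn, Acta2 and Myh11 are gate genes, so their counts here describe the choice and are no support for it. Dcn was found in 78 of 79 members. Gsn, the actin-severing protein gelsolin, was not in the gate and was found in 75 members with 1119 UMIs. Its level was 2244 CPM (UMIs per 1000000 UMIs of the group, interval 2114 to 2379), against 39.8 CPM in barcodes of a steroid gate, 4.02 CPM in those of a Sertoli gate and 1.91 CPM outside the gates. Col3a1, a fibrillar collagen, was found in 56 members and Pdgfra, the platelet-derived growth factor receptor of mesenchymal cells, in 48. Lum, a fibroblast proteoglycan, had only 4 UMIs in 4 members. Acta2 was found in 7 members, Des in 6, Myh11 in 5, Tagln in 3, Cnn1 in 2 and Itga8 in 2. The 4 pericyte markers summed to 58 UMIs in 36 members, 116 CPM against 111 CPM outside the gates. Ndufa4l2 held 42 of these UMIs, with 84.2 CPM in the members against 109 CPM outside the gates, and Cspg4 held 11, with 22.1 CPM against 0.301 CPM. After thinning to 1000 UMIs per barcode, Gsn was found in 74.7% of members and the gate gene Acta2 in 5.06%. In a random draw of the barcodes outside the gates the shares were 0.15% and 0.10%.

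A pair of neighbouring somatic cell groups of the same table served for comparison. The steroid gate (at least 10 UMIs of the 4 steroid enzyme genes, Leydig cells by that rule) held 73 barcodes, and the Sertoli gate (at least 8 UMIs of Sox9, Wt1, Cldn11, Aard, Rhox8, Defb36 and Amhr2, in no other gate) held 444. A gene with at least 20 UMIs over the groups compared counts as measured. It is called higher or lower if its CPM differs at least 2-fold in the pool and under each mark, with at least 50 CPM and 30 UMIs where it is higher. A group at 0 UMIs is set at 3 counts over the group, so that such folds are lower bounds. Gate genes were left out. A gene can reach 20 UMIs through 1 group alone, so list medians can lean toward the group where the genes are high. Against the steroid gate 192 of 7784 measured genes were higher in the members (2.47%) and 353 were lower (4.53%). Against the Sertoli gate 349 of 11576 were higher (3.01%) and 86 lower (0.743%), 3.76% in all. The counts of called genes in lists, given below, are to be read beside these shares. The median log2 ratio of genes well counted in both groups was 0.27 against the steroid gate and -0.11 against the Sertoli gate. After division by it 520 of the 545 and 429 of the 435 calls remained, in the same direction. With an estimate of free RNA subtracted, 448 of the 545 and 318 of the 435 remained. The estimate was the summed profile of the cell barcodes outside the gates, scaled in each group to its Prm1, Prm2, Tnp1 and Tnp2 UMIs. Whether free RNA has this makeup was not tested.

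Genes of the extracellular matrix stood above both neighbours in most of their lists. Of 13 basement membrane genes 7 were measured against the steroid gate and 6 of them were higher, with a median log2 ratio of 4.44 against 0.19 over all measured genes. Of the 8 measured against the Sertoli gate 6 were higher, with a median of 5.79 against -0.00 over all. The 13 genes summed to 528 UMIs in the members, 75 in the steroid gate and 80 in the Sertoli gate. They could thus be measured through the members alone, which can move these medians upward. Lama2, a laminin chain, had 223 CPM in the members, 6.41 CPM in the steroid gate and 5.28 CPM in the Sertoli gate. Lamb1, another laminin chain, had 195 CPM, 8.98 CPM and 0 CPM in the same order, and Col4a1, the network-forming collagen of basement membranes, had 168 CPM, 7.70 CPM and 1.01 CPM. Of the small proteoglycans 3 of 9 were measured and 2 were higher against each gate. Bgn, biglycan, had 259 CPM in the members against 5.13 CPM in the steroid gate, a ratio of 50.4 (19.2 to 188), and Ogn, osteoglycin, had 187 CPM against 42.3 CPM.

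Collagen and elastic fibre genes were more divided. Of 20 genes for collagens and their processing 9 were measured against the steroid gate, 4 were higher and 1 lower, and 12 were measured against the Sertoli gate, 6 of them higher. Col3a1 had 291 CPM in the members against 25.7 CPM in the steroid gate (ratio 11.3, 7.08 to 19.1), and Col15a1, a collagen of the basement membrane zone, had 134 CPM against 1.28 CPM. Sparc, a collagen-binding glycoprotein, had 900.4 CPM in the members, 998 CPM in the steroid gate and 313 CPM in the Sertoli gate, and was called only in the last comparison. Pcolce, an enhancer of procollagen cleavage, was the gene that was lower, with 104 CPM in the members against 416 CPM in the steroid gate. Of the elastic fibre and adhesive glycoprotein genes 4 were higher in each comparison: Ltbp4, Efemp1, Fbln5 and Mfap5. Ltbp4, a latent TGF-beta binding protein of elastic fibres, was found in 68 of 79 members, with 441 CPM against 3.85 CPM in the steroid gate and 0.251 CPM in the Sertoli gate.

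Adamts5, a protease that cuts proteoglycans, stood among the 10 largest ratios in both comparisons. It was found in 73 of 79 members with 437 UMIs, 876 CPM (796 to 963), beside 2 UMIs over the 73 barcodes of the steroid gate and 0 UMIs over the 444 of the Sertoli gate. The ratio was 342 against the steroid gate (94.0 to 2829.9) and at least 1162 against the Sertoli gate. Under the marks its level was 838 CPM and 946 CPM. Of 19 proteases and inhibitors 9 were measured against the steroid gate, 6 of them higher, and 10 against the Sertoli gate, 8 of them higher. The serpins Serping1, the inhibitor of complement C1, and Serpinf1 had 539 CPM and 223 CPM in the members, against 117 CPM and 43.6 CPM in the steroid gate. Timp2, an inhibitor of metalloproteases, had 558 CPM against 758 CPM in the steroid gate and 151 CPM in the Sertoli gate, and was higher only in the comparison with the Sertoli gate.

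**Figure D2:**
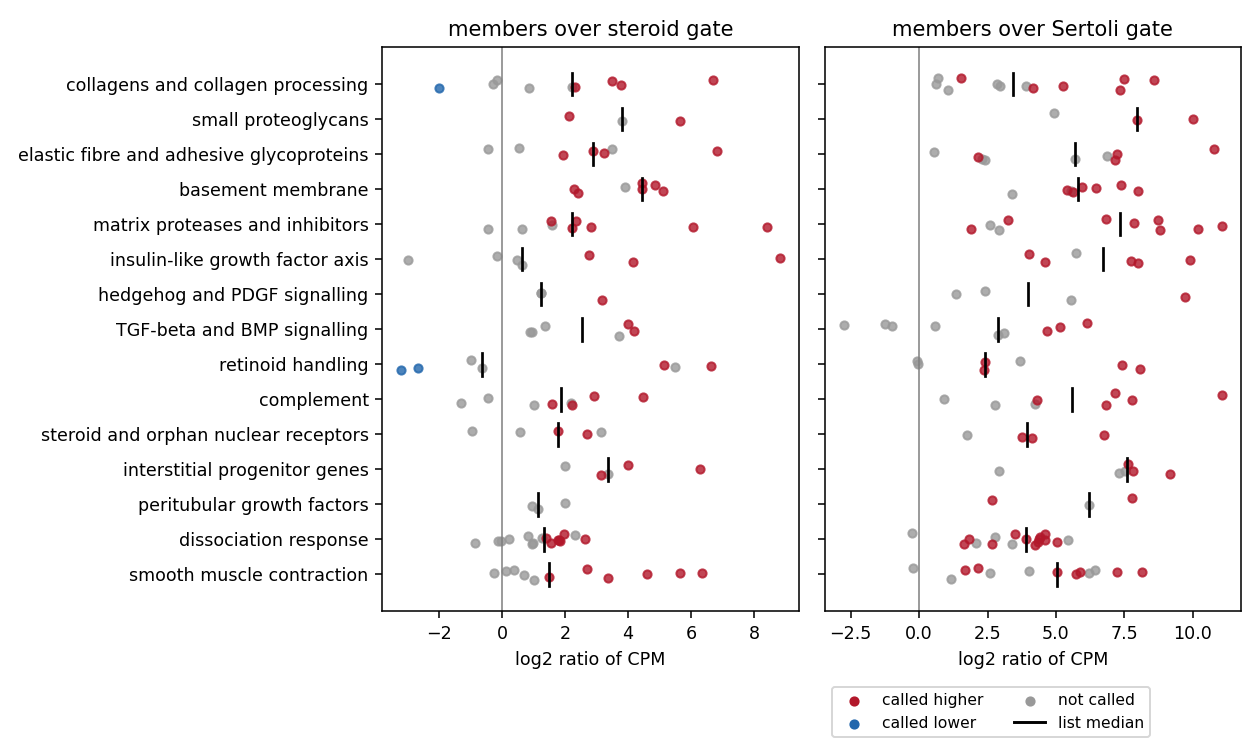
Log2 ratio of CPM for the measured genes of 15 lists, members over the steroid gate (left) and members over the Sertoli gate (right). Each point is a gene, red where called higher, blue where called lower and grey where not called, and black bars are list medians. The basement membrane list has a median of 4.44 on the left and 5.79 on the right, while retinoid handling lies at -0.62 on the left. A gene can be measured through 1 group alone, which can move a list median toward that group.

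Growth factor lists differed in how many genes were called. Over all measured genes 2.47% were higher against the steroid gate and 3.01% against the Sertoli gate. Of the TGF-beta and BMP genes 2 of 6 measured were higher against the steroid gate (Fstl1 and Ltbp1) and 3 of 9 against the Sertoli gate, where Tgfbr3 joined them. Of the hedgehog and PDGF genes 1 of 3 and 1 of 4 were higher, in both cases Pdgfra. Igf1, a growth factor that acts on Leydig and germ cells, had 582 CPM in the members, found in 65 of them, against 1.28 CPM in the steroid gate and 2.26 CPM in the Sertoli gate. Igfbp6, a binding protein of IGF-II, had 1187 CPM against 173 CPM and 1.26 CPM. Igfbp7 had 878 CPM against 625 CPM in the steroid gate and was called only against the Sertoli gate, where it had 36 CPM. Of the IGF genes 3 of 7 measured were higher against the steroid gate and 5 of 6 against the Sertoli gate. Among receptors, Pdgfra had 211 CPM against 23.1 CPM in the steroid gate (ratio 9.12, 5.50 to 16) and 0.251 CPM in the Sertoli gate. Ptch1, the hedgehog receptor and target, had 29 UMIs in 22 members and did not pass the rule, and Hhip and Pdgfb had 0 UMIs. Pdgfrb, Gli1 and Gli2 were not analysed here.

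Transcription factors of mesenchymal cells were also found. Tcf21, which marks interstitial progenitors in mouse testis, had 85 UMIs in 41 members, 170.5 CPM (136 to 211), against 19.2 CPM in the steroid gate and 0 in the Sertoli gate. Cd34 and Ly6a, surface proteins of stromal progenitors, had 201 CPM and 144 CPM against 2.57 CPM and 8.98 CPM in the steroid gate. Dlk1 had 20 UMIs, too few for the rule, and Nes and Thy1 had 0. Nr2f2, an orphan nuclear receptor of interstitial cells, had 136 CPM against 39.8 CPM in the steroid gate.

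The factors by which peritubular and interstitial cells act on germ cells were sparse. Of 10 such genes 3 were measured in each comparison. Cxcl12, the chemokine that holds stem cells in their niche, had 82 UMIs in 40 members, 164 CPM against 74.4 CPM in the steroid gate, and was not called there. Kitl, the ligand of the Kit receptor, had 90.2 CPM against 46.2 CPM. Both were called against the Sertoli gate, where Cxcl12 had 0 UMIs and Kitl 14.3 CPM. Csf1 had 28 UMIs in 22 members. Gdnf, a factor for spermatogonial stem cells, had 1 UMI in all members, an amount too small to place above or below any other group.

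Retinoid genes split the members from Leydig cells in both directions. Cyp26b1, the enzyme that degrades retinoic acid, had 190 UMIs in 43 of 79 members, 381 CPM (329 to 439), against 0 UMIs in the steroid gate (at least 99.0-fold higher) and 2.26 CPM in the Sertoli gate. Rarres2, chemerin, had 273 CPM against 7.70 CPM in the steroid gate. Aldh1a1, which makes retinoic acid from retinal, was lower, with 313 CPM in the members against 1965 CPM in the steroid gate, a ratio of 0.159 (0.134 to 0.188), while it was higher than the 58.6 CPM of the Sertoli gate. Complement genes were led by Serping1, already given, and by C1s1 and C1ra, the proteases of the first complement complex, with 166 CPM and 108 CPM against 21.8 CPM and 35.9 CPM in the steroid gate. Of the 8 complement genes measured 4 were higher against the steroid gate and 5 against the Sertoli gate.

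The 10 genes of largest ratio above the steroid gate were Fgl2, Igf1, Adamts5, S100a6, Id3, Entpd2, Ltbp4, Sulf2, Col15a1 and Cyp26b1. Fgl2, a fibrinogen-like secreted protein, had 342 UMIs in 67 members beside 1 UMI in the steroid gate, and S100a6, a calcium-binding protein, had 287 UMIs beside 0. Against the Sertoli gate the 10 were S100a6, Serping1, Ltbp4, Adamts5, Sparcl1, Bgn, Igfbp6, Ckb, Pdgfra and Fhl2. S100a6, Ltbp4 and Adamts5 stand in both sets. In the other direction Insl3, the Leydig cell hormone, had 0 UMIs in the members beside 1765 UMIs in the steroid gate, and Lcn2, Ptgds and Sult1e1 had 4, 16 and 1 UMIs beside 5152, 6269 and 368.

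Lists of other cell types were not all at the level found outside the gates. Of the 10 Leydig cell markers 6 were at 0 in the members. Cyp17a1, Cyp11a1 and Hsd3b1 are genes of the steroid limit that chose the members, and Insl3, Hsd17b3 and Hsd3b6 are not. The list summed to 260 UMIs, 0 to 20 per member. Nearly all of these were of Aldh1a1 (156) and of the fatty acid carrier Fabp3 (98, 197 CPM against 5304 CPM in the steroid gate). The Sertoli cell list summed to 178 UMIs, 0 to 92 per member, with Aard at 40 and Defb36 at 25 UMIs, and 92 of the 178 lay in the member that also passed the Sertoli gate. The Schwann cell list had 28 UMIs in 21 members, 56.2 CPM against 11.5 CPM in the steroid gate and 4.95 CPM outside the gates, and 22 of them were of S100b. The endothelial list had 24 UMIs in 19 members, 48.1 CPM against 16.6 CPM outside the gates, 17 of them of Cdh5, with Pecam1, Vwf, Kdr, Egfl7 and Emcn at 0. The part of these cells in the results was not tested. The macrophage list had 6 UMIs, 12 CPM against 39.3 CPM outside the gates, with C1qa, C1qc, Cd68, Csf1r, Adgre1 and Fcer1g at 0. The 5 erythroid genes were at 0. Germ cell lists had more UMIs, at lower levels than outside the gates: spermatocyte markers had 1608 CPM in the members against 2257 CPM, and elongating spermatid markers 49153 CPM against 87013 CPM. Actg2, a smooth muscle actin by name, was no higher in the members than elsewhere, with 185 CPM in the members against 225 CPM outside the gates.

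Among the matrix-led members some genes were found in nearly all barcodes and others were not, and counts varied widely for each. Dcn ranged from 4 to 112 UMIs per barcode with a median of 27, Gsn from 0 to 54 with a median of 10, and Adamts5 from 0 to 18 with a median of 5. Adamts5 and Gsn were each found in 73 of 75 and Igfbp6 in 72. The medians under mark 1 and mark 2 were 27 and 27 UMIs for Dcn, 9 and 11 for Gsn, and 6 and 5 for Adamts5. Apoe, the lipid carrier, was found in 73 of 75 with a median of 14 UMIs and a highest value of 73. Igf1 was found in 64 with a median of 3. Cyp26b1 was found in 40 and Pltp in 40. They had 170 and 126 UMIs in all, against 437 for Adamts5, and the share of members with a UMI depends on the level. The spread within a mark was much wider than the distance between the marks' medians.

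UMIs of immediate-early genes were concentrated in a minority of members. Fos was found in 28 of 79 members, all of them matrix-led, and Junb in 36. Of 9 such genes (Fos, Fosb, Jun, Junb, Egr1, Ier2, Btg2, Zfp36 and Dusp1) 23 members had UMIs of 5 or more, and 19 members had none. The sum over the 9 ranged from 0 to 104 UMIs with a median of 2, and the 10 members with the highest sums held 59.9% of the 949 UMIs. These genes answer many stimuli, tissue digestion among them. Against the steroid gate 7 of 16 measured genes of the wider dissociation list were higher, beside 2.47% of all measured genes. Against the Sertoli gate 12 of 17 were higher, beside 3.01%. Such members occurred under both marks, 12 of 46 under mark 1 and 11 of 33 under mark 2.

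**Figure D3:**
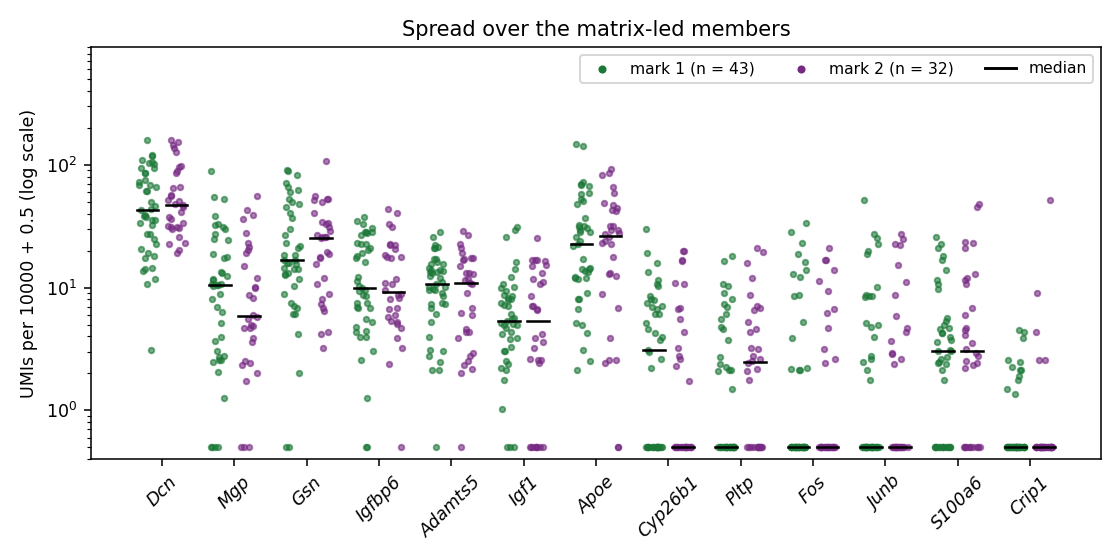
UMIs per 10000 plus 0.5 (log scale) of 13 genes in each matrix-led member, 43 under mark 1 (green) and 32 under mark 2 (purple), with black bars at the medians. Dcn, Gsn, Igfbp6 and Adamts5 are found in nearly all members, while Cyp26b1, Pltp, Fos and Junb have a floor of members at 0 UMIs under both marks.

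A further division was seen along Cyp26b1. It was examined after the values had been seen, and Cyp26b1 itself was then left out. The 32 matrix-led members with 2 or more Cyp26b1 UMIs were set against the 35 with none, and the 8 with 1 UMI were left out. The members with Cyp26b1 were higher in 20 of 3884 measured genes (0.515%) and lower in 14 (0.360%), 0.875% in all, and the median log2 ratio of all was -0.06. The first set had a median of 5218 UMIs per barcode and the second 5823. Protamine and transition protein genes made up 5.62% and 3.85% of their UMIs. Per barcode the medians were 190 and 177 such UMIs and the highest values 4329 and 1816. The pooled shares thus rest in part on single barcodes. The 18 genes of the dissociation list summed to 2154 CPM, with a median of 5.5 UMIs per barcode, in the members with Cyp26b1, against 4188 CPM with a median of 14 in those without. Their median log2 ratio was -1.17 over 13 measured genes, of which Btg2 was called lower, while Fos (ratio 0.494) and Junb (0.467) were not called. The Leydig cell list had 881 CPM against 300.1 CPM, 114 of 166 UMIs and 31 of 68 UMIs being of Aldh1a1. The Sertoli cell list had 117 CPM against 583 CPM, with a median of 1 UMI per barcode in both sets. Of the 132 Sertoli list UMIs in the members without Cyp26b1, 92 lay in the member that passed the Sertoli gate. The part of germ cell RNA, dissociation or these cells in the division was not tested.

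Few listed genes were called in this division. None of 7 measured genes each for collagens, elastic fibres and basement membrane was called, while 1 of 2 small proteoglycans (Ogn), 1 of 8 proteases and inhibitors (Serping1) and 2 of 4 retinoid genes were higher in the members with Cyp26b1. Pltp, the phospholipid transfer protein, had 547 CPM in them, found in 25 of 32, against 61.8 CPM in those without, found in 11 of 35, a ratio of 8.85 (5.04 to 16.8). The highest value among those without was 3 UMIs, and 10 among those with, so that the groups overlapped. Aldh1a1, a retinoic acid-making enzyme, had 605 CPM against 137 CPM (ratio 4.42, 2.95 to 6.81). Ccn2, a matricellular growth factor, had 653 CPM against 61.8 CPM, with 20 of 32 members above 0 against 3 of 35. A single member of 19120 UMIs held 30 of its 123 UMIs, and without the members over 3 times the median depth the ratio was 7.86, against 10.6 with them. Ogn, Crispld2, Slc38a5, Ckb, Mmd2, Fhl2 and Smoc2 complete the 10 largest ratios above, and Igfbp6 (2.56) and Serping1 (2.67) also passed. Without the deep members 12 of the 34 calls were lost, among them Smoc2, S100a6 and Cald1, and 18 genes were then higher and 7 lower.

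Apoe, Cxcl12 and Agt were lower in the members with Cyp26b1. Apoe had 1236 CPM with a median of 6 UMIs per barcode in them, against 3897 CPM with a median of 21 in those without, a ratio of 0.317 (0.273 to 0.367). Cxcl12 was found in 9 of 32 against 23 of 35, and Agt, angiotensinogen, in 12 of 32 against 23 of 35. Adamts5 had 976 CPM against 962 CPM, a ratio of 1.01 (0.830 to 1.24), and Pdgfra had 249 CPM against 212 CPM, so that these stromal genes did not pass the rule in this division. The gate gene Dcn had 4112 CPM against 5860 CPM and Mgp 1730 CPM against 887 CPM. Over the 75 matrix-led members, which share libraries and free germ cell RNA, Pearson's r of log2 levels was 0.592 for Cyp26b1 with Pltp and -0.533 for Cyp26b1 with Apoe, given as a description. Both kinds of member occurred under each mark, 22 with and 18 without under mark 1, and 10 with and 17 without under mark 2. Apoe and Pltp kept their call in each of the 4 alternatives for which gene calls were compared, and Cxcl12, Agt and the immediate-early gene Btg2 lost theirs when an estimate of free RNA was subtracted. Agt also lost its call without the member that passed the Sertoli gate.

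**Figure D4:**
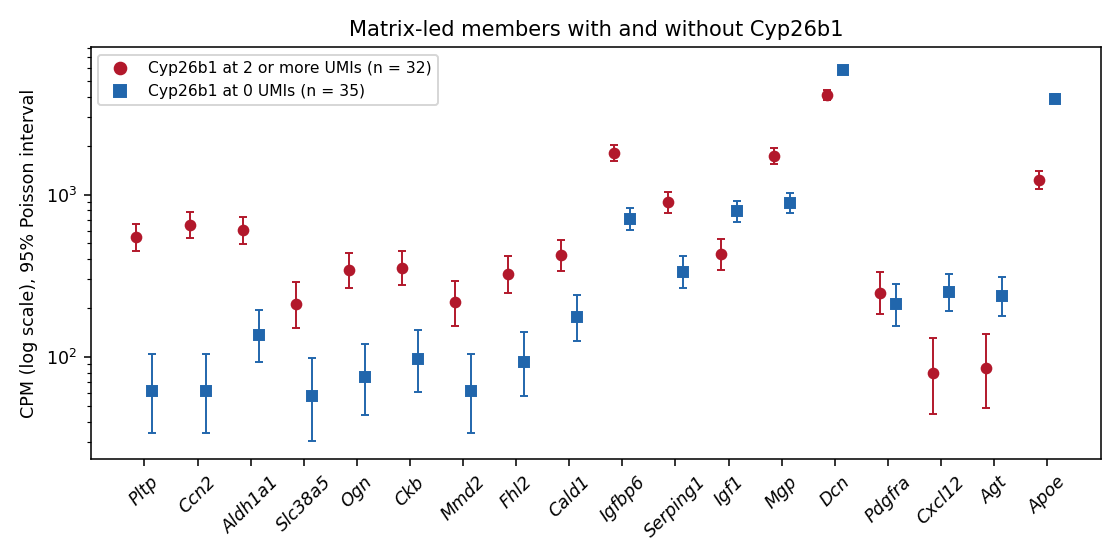
CPM on a log scale, with exact 95% Poisson intervals, of 18 genes in the 32 matrix-led members with 2 or more Cyp26b1 UMIs (red circles) and the 35 with none (blue squares). Pltp lies at 547 against 61.8 CPM and Apoe at 1236 against 3897 CPM, while Pdgfra overlaps at 249 and 212 CPM.

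The 4 muscle-led members shared a set of contractile genes. Acta2 had 60, 52, 21 and 13 UMIs in them and Myh11 4, 7, 3 and 5, by which they were chosen. Myl9, the regulatory light chain of smooth muscle myosin and no gate gene, had 19, 17, 7 and 7 UMIs. The 75 matrix-led members had 0 to 3. These counts are not scaled to depth, and 1 of the 4 muscle-led members had 24747 UMIs. How many of all measured genes separate the groups in this way was not counted. The level of Myl9 was 1179.5 CPM against 59.2 CPM, a ratio of 19.9 (12.2 to 33.1). Tagln, transgelin, had 14, 14, 0 and 4 UMIs, against 0 in all 75 matrix-led members. Mylk, the light chain kinase, had 7, 13, 3 and 4 UMIs against at most 2, and Tpm2, a tropomyosin, had 6, 9, 8 and 2 against at most 3. Cnn1 had 4, 2, 0 and 0, Itga8, an integrin of myoid cells, 2, 3, 0 and 0, and Des 0, 0, 3 and 0. The summed smooth muscle list had 106, 129, 48 and 38 UMIs against 1 to 24 in the matrix-led members, whose median was 6.

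**Figure D5:**
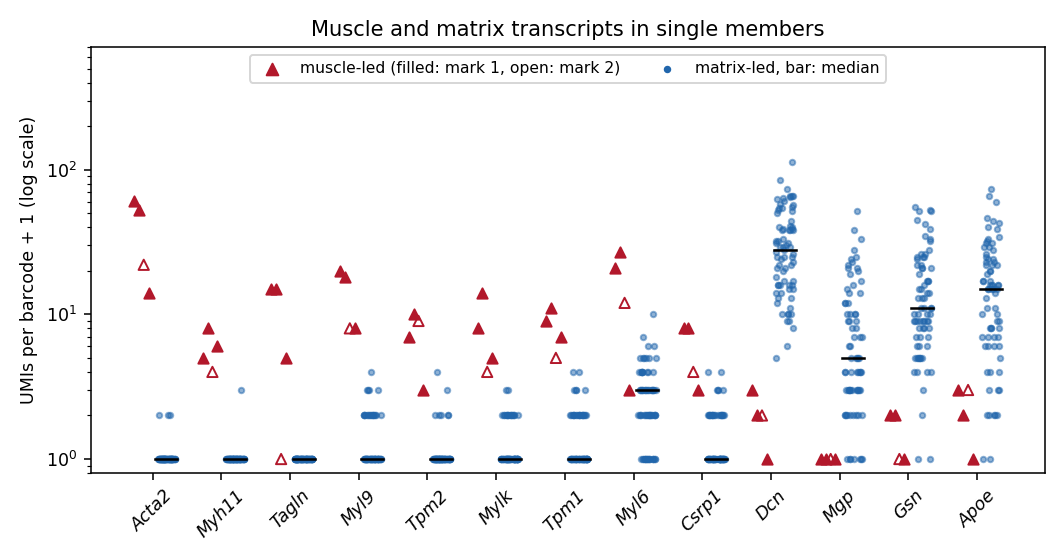
UMIs per barcode plus 1 (log scale) in each of the 4 muscle-led members (red triangles, filled under mark 1 and open under mark 2) and the 75 matrix-led members (blue points, black bar at the median). The muscle-led members lie above all matrix-led members for the gate genes Acta2 and Myh11 and for Myl9, Mylk and Tpm1. They lie at 0 to 2 UMIs for Dcn, Mgp, Gsn and Apoe. Counts are not scaled to depth.

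With 4 barcodes few genes could pass the rule. The muscle-led members were higher in 3 of 4452 measured genes (0.0674%) and lower in 7 (0.157%), 0.225% in all. Myl9, Myl6 and Gtsf1 were higher. Myl6, the essential light chain, had 20, 26, 11 and 2 UMIs against a median of 2 and a highest value of 9, with a ratio of 4.77 (3.45 to 6.53). Tagln did not pass because the member under mark 2 had 0, nor did Mylk, Tpm1 and Tpm2 with under 30 UMIs each. The lower genes included Gsn, with 47.2 CPM against 2448 CPM, Apoe, with 118 CPM against 2781 CPM, Cst3, the protease inhibitor cystatin C, and Pgrmc1, a membrane protein that binds haem. The remaining calls were of genes of the male germ line: Gtsf1, a piRNA pathway protein, had 1132 CPM in the muscle-led members, 515 CPM in the matrix-led and 821 CPM outside the gates, and H1fnt, a spermatid linker histone, 118, 673 and 796 CPM. Ubl4b and Spata3 were lower as well. Protamine and transition protein genes made up 1.97% of UMIs in the muscle-led members and 4.58% in the matrix-led. Per barcode the medians were close, 197 and 184 such UMIs, with highest values of 269 and 4329. The part of germ cell RNA in these calls was not tested. Without the member of 24747 UMIs 12 genes were called, 7 of them shared, and Gtsf1, Cst3 and Spata3 were lost. The ratio of Myl9 was then 31.6. With an estimate of free RNA subtracted it was 11.1 and that of Myl6 3.23, both still called, and H1fnt, Spata3 and Ubl4b lost their calls.

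Cyp26b1 and several genes that were higher beside it were also found in 3 of the 4 muscle-led members. Cyp26b1 had 6, 9, 5 and 0 UMIs in the muscle-led members, Ccn2 15, 13, 3 and 0, Slc38a5, an amino acid transporter, 10, 6, 5 and 0, and Igfbp6 12, 18, 2 and 0. None of these was called between muscle-led and matrix-led members. Adamts5 and Pdgfra had 0 UMIs in each of the 4 and Igf1 had 0, 1, 0 and 0, but none was called: under mark 2, with the 0 set at 3 counts, the ratio of Adamts5 was 0.580. The member with 5437 UMIs differed from the other 3, with 0 UMIs of Cyp26b1, Ccn2, Igfbp6 and S100a6, and with 6 UMIs of Crip1 against 0 in each of the others.

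The promoters of Acta2 and Myl9 are shown because these genes set the muscle-led members apart. The sequences are from RefSeq on GRCm38.p6, 250 bases before to 50 after the start, 5′ to 3′ along the gene, with CArG boxes, the binding element of serum response factor, in capitals. A box was read by its form, a CC and a GG around 6 bases of A or T with at most 1 other base, which is the same on both strands. The Acta2 promoter (chr19:34255324-34255623, minus strand) has 2 boxes, which begin 84 and 34 bases before the start, and that of Myl9 (chr2:156775214-156775513, plus strand) has 2, which begin 161 and 99 bases before it.
Acta2 promoter: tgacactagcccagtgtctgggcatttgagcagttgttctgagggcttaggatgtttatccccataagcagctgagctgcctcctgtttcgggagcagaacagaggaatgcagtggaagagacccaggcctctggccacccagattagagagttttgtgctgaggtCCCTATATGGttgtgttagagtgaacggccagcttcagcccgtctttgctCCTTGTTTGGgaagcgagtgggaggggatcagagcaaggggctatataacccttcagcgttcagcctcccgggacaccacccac
Myl9 promoter: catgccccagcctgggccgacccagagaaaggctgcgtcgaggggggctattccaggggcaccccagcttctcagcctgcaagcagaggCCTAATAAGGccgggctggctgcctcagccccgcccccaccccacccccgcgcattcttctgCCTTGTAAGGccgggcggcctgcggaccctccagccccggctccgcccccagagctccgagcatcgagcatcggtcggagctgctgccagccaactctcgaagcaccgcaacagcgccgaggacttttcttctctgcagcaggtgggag
Of 32851 promoters of this length 9.98% hold a box and 0.822% hold 2 or more. Of the 18 contractile genes with a RefSeq promoter here, 3 hold a box in at least 1 promoter: Acta2, Myl9 and Myl6. This count is of genes, while the shares before it are of promoters, so they are not in like units. The 1 matrix gate gene with such a promoter also holds a box, so a box is not particular to the muscle genes. A match is a description of the letters and not evidence of binding.

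The genes of the gate lie apart in the genome. On GRCm38 with the GENCODE M21 annotation, Dcn spans chr10:97479609-97518143 (plus strand), Mgp chr6:136872435-136875823 (minus), Col1a1 chr11:94936224-94953042 (plus), Col1a2 chr6:4504814-4541544 (plus), Acta2 chr19:34241090-34255590 (minus) and Myh11 chr16:14194535-14291372 (minus). Cyp26b1 spans chr6:84571414-84593908 (minus) and Gsn chr2:35256380-35307892 (plus).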

How the data were processed

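Total testicular cells of adult miR-202-/- and wild-type mice gave 1 library each. The deposited table holds raw UMI counts of 20476 genes in 28245 barcodes, made with Cell Ranger 1.3.1 and Seurat 3.2.2 on GRCm38, per the submitters' processing notes. How barcodes were filtered before deposit is not stated in the labels. Both libraries stand in 1 table, and the barcode ends 1 and 2 were read as marks of a library, which the labels do not state. Marks held 158740437 and 168967776 UMIs.

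UMIs were summed over the barcodes of a group and divided by the group's total (CPM), with Python 3.11.15, NumPy 2.4.6, SciPy 1.17.1 and pandas 2.3.3. Levels have exact Poisson intervals, ratios conditional binomial intervals and shares Clopper-Pearson intervals, at 95%. With 1 library per genotype no test was run. Counts of different genes were not compared as levels, since 3′ capture differs between genes. No doublet caller was run, and members over 3 times the median UMIs were left out in an alternative. Shares of barcodes with a UMI were also computed at 1000 UMIs per barcode, outside the gates on a random draw of the barcodes.

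The members, gene lists, comparisons and alternatives were chosen with earlier results of these data known, and the division by Cyp26b1 after its values were seen. The rule for named genes takes the gate genes, up to 4 genes of each pathway list with the most UMIs in the members, further listed genes called between muscle-led and matrix-led members, the 2 genes of each cell type list with the most UMIs, the 10 largest ratios in each direction between muscle-led and matrix-led members, and the 10 highest against each of the other gates. Other named genes, such as Gsn, Tagln, Mylk, Tpm2, Pltp, Ccn2, Apoe, Agt, Crip1, Insl3, Lcn2, Ptgds and Sult1e1, and all named in the division by Cyp26b1, were chosen after their values were seen. Listed genes without a row, such as Pdgfrb, Mmp2, Eln, Dpt and Rgs5, were not analysed here.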

Additional observations from a re-analysis of the deposited data

How the results depend on the processing

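No paired analysis was possible because the labels give no replicate numbers and each genotype has 1 library. The share of members was 0.356% with mark 1 only and 0.216% with mark 2 only, and 0.262 to 0.294% in the other 7 alternatives. The muscle-led share ranged from 3.03 to 6.52% over 10 alternatives.

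Between members and the steroid gate the 545 calls became 880 with no minimum of CPM and UMIs, 233 with at least 100 UMIs, 922 at 1.5-fold and 321 at 3-fold, and 486 to 780 in the other 12 alternatives. Between members and the Sertoli gate the 435 calls became 1348, 186 and 677 under the first 3 of these and 1578 with free RNA subtracted, when 684 were higher and 894 lower in place of 349 and 86. The subtracted profile, that of the barcodes outside the gates scaled to Prm1, Prm2, Tnp1 and Tnp2, came to 56.0% of UMIs in the members. It came to 93.1% in the Sertoli gate, where little then remains. The other 12 alternatives gave 333 to 514.

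Between muscle-led and matrix-led members the 10 calls became 371 with no minimum (364 higher, 7 lower, in place of 3 and 7), 47 at 1.5-fold, 6 at 3-fold, 53 with free RNA subtracted and 416 with the marks not required (7 higher, 409 lower), and 7 to 12 in the other 12. With the marks required, a 0 in the 1 muscle-led barcode under mark 2 (5303 UMIs) was set at 3 counts. Such a gene could be called lower only if its level in the matrix-led members was high. With no minimum, genes under 30 UMIs in the muscle-led members could be called higher. How many of the added calls were of genes at 0 was not counted. In the division by Cyp26b1 the 34 calls became 115 with free RNA subtracted and 79 with the marks not required, and 25 to 51 in the other 5. After division by the median ratio 23 were higher and 9 lower in place of 20 and 14. Genes under 50 CPM, or under 30 UMIs, in both groups could not be called, by the rule itself. For genes higher in the members (498651 UMIs) the limit of 30 UMIs was the stricter. It was far stricter in the muscle-led members (42391 UMIs), where genes well above 50 CPM could not be called higher.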

Other observations

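The following genes belong to no list of the report and were chosen after their values were seen. Malat1, a nuclear long non-coding RNA, had a higher pooled level in the members and the steroid gate than in the other 2 groups. Single members had 7 to 234 UMIs of Malat1, and overlap with barcodes of the other groups was not examined. Its level was 15321 CPM in the members and 15326 CPM in the steroid gate, against 638 CPM in the Sertoli gate and 687 CPM outside the gates. Plpp3, a lipid phosphatase of the cell surface, was found in 77 of 79 members with 1019 CPM, against 48.7 CPM in the steroid gate and 1.76 CPM in the Sertoli gate. The transcription factors Ebf1 and Osr1 had 209 CPM and 182 CPM in the members, against 10.3 CPM and 18 CPM in the steroid gate. Meg3, an imprinted non-coding RNA, had 170.5 CPM against 57.7 CPM in the steroid gate and 0.251 CPM in the Sertoli gate.

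A matrix-led member under mark 2 stood apart from the other 74, with 32 UMIs of Crip1 and 28 of S100a6. The sum of Crip1 over all matrix-led members was 56 UMIs.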
